A study of Mus musculus with 28 samples.

Results

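The cytosolic ribosomal protein genes were followed in RNA sequencing of the frontal cortex of male C57Bl/6 mice. Members were the protein-coding genes listed in both deposited count tables whose symbol has the form Rps or Rpl followed by a number, with Rpsa and the stalk genes Rplp0, Rplp1 and Rplp2, and without the Rps6 kinase genes and symbols containing "-ps". The rule gave 83 genes, of 15097 in the social stress table and 15054 in the diabetes table. Of these, 33 encode proteins of the small subunit and 49 proteins of the large subunit. The remaining one, Rps19bp1, entered by its symbol: its product, also called AROS, binds the small-subunit protein Rps19 and is not part of the ribosome.

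The CSS mice (chronic social stress, n = 8, aged 21 weeks) were housed alone for 7 weeks and met another mouse in daily pairs of confrontations over the final 20 days. The CSS_control mice (n = 8) were of the same age and kept under control conditions. The T2D mice (induced type 2 diabetes, n = 6, aged 30 to 31 weeks) received streptozotocin, a toxin of insulin-making cells, at 75 mg/kg and were fed for 21 weeks on a diet that drew 43.2% of its kcal from fat. The T2D_control mice (n = 6) were aged 30 to 31 weeks. Streptozotocin with a fatty diet models a diabetes of partial insulin loss, and the labels do not say whether the controls were injected with vehicle. Each library came from a separate mouse. The samples are bulk tissue, so fewer cells of a type and less RNA per cell cannot be told apart in any value below.

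Ribosomes translate all messenger RNAs, and each carries nearly every ribosomal protein in a single copy, so cells make these proteins in matched amounts. Their messenger RNAs are short and abundant, and most begin with a terminal oligopyrimidine (TOP) tract, a cytosine at the cap followed by a run of pyrimidines. This tract lets Larp1 and the kinase mTOR hold back or release their translation together, largely without changing the amount of messenger RNA. In neurons ribosomes also work in dendrites and axons, where messages of ribosomal proteins are found. Mammalian genomes hold many reverse-transcribed copies of ribosomal protein genes, some almost identical to the parent, and short reads can be hard to place among them.

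Estimated counts totalled 15.2 to 21.9 M per CSS library, 14.3 to 37.5 M per CSS_control library, 14.3 to 22.7 M per T2D library and 12.1 to 21.6 M per T2D_control library. RNA integrity numbers averaged 9.62 ± 0.341 in CSS and 9.53 ± 0.225 in CSS_control, and 9.05 ± 0.235 in T2D and 9.37 ± 0.509 in T2D_control. Slc17a7 and the other 4 markers of cortical excitatory neurons were above 0 in every library, with a summed level of 585 to 1016 CPM (counts per M, after TMM scaling) in CSS and 558 to 939 CPM in CSS_control. The CSS_control libraries fell into sets by the code in their titles. Controls 1 to 4 carry the code C1 and controls 5 to 8 carry C2 or C3, which the labels do not explain, and these sets did not overlap in 1586 of 15097 genes (10.5%) and in 8 of the 83 members (9.64%). Against controls 5 to 8 alone 0 of all genes passed the test described below, so no call in CSS mice held against that set alone, and values against each set are given further on.

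The starts of the genes past the test in CSS mice, of Rpl22l1 and of the pair Rps27 and Rps27rt were read in the RefSeq promoter table (GRCm38.p6). They show whether the TOP tract by which these messages are known lies near the listed start. The table held 63 of the 83 members. The tract searched was a C followed by at least 5 letters that are C or T, on the transcribed strand, from 20 bases before to 30 bases after the listed start. It was found in 46 of the 63 members (73.0%) and in 10225 of 27025 genes of the table (37.8%). A match is a description of these letters and not evidence of a cap site. The 30 bases below run 5′ to 3′ from 5 bases before the listed start, and capitals mark the tract.
Rps26 (chr10:128626482-128626511, minus strand): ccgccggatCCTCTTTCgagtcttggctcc
Rps12 (chr10:23787185-23787214, minus strand): cggccaccgccggCCTTTTCCCCTgccgcc
Rpl23 (chr11:97782415-97782444, minus strand): gtcacgtggctgagtgggcggggCCTCCCg
Rpl27 (chr11:101442240-101442269, plus strand): cctgtctgctgctcgtgctgctaataaagc
Rpl36al (chr12:69184043-69184072, minus strand): gctcaggttcagttccgacttccgctctgt
Rpl22l1 (chr3:28805503-28805532, plus strand): agcccgttCTCTTCCCacggctgcagctca
Rps27 (chr3:90213624-90213653, minus strand): tcgCTCCTTTCCggcggtgacgacctccct
Rps27rt (chr9:114982715-114982744, minus strand): ccttgCTTTCCggcggtgacgacctcccta
The tract began 4 bases after the listed start of Rps26, 8 after that of Rps12 and 18 after that of Rpl23, and was not in the window of Rpl27 or Rpl36al. Together these are 5 of the 7 genes that passed the test in CSS mice, where Rps26 and Rpl23 fell and Rps12 rose. In the GENCODE M21 annotation Rpl27 begins at chr11:101442298, past the stretch searched, so the bases at that start were not read. Rps27 and Rps27rt, a gene and its copy, shared the run of 24 bases ctttccggcggtgacgacctccct around the tract.

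In CSS mice 5 ribosomal protein genes fell and 2 rose, and the remaining 76 did not pass the test. Among those that fell, Rps26, Rpl21, Rpl23 and Rpl36al were lower, by 0.23 to 0.37 on the log2 scale, and Rps12 and Rpl27 were higher, by 0.38 and 0.41. The members did not move one way: 43 of the 83 log2 fold changes were positive and 40 negative, with a median of 0.02, against a median of 0.01 over all genes. Passing means an adjusted p under 0.05 in edgeR's quasi-likelihood test with Benjamini-Hochberg adjustment over all genes of the table. The 7 members were 8.43% of the 83, against 4.52% of all genes tested. The 2 that rose were 2.41%, against 2.11% of all genes that rose, a share near the background. The 5 that fell were 6.02%, against 2.42% of all genes that fell. At an unadjusted p under 0.05, 33 members (39.8%) differed, 17 higher and 16 lower, against 21.5% of all genes. The changes were small throughout: 31 members lay within 0.1 log2 of no change and 9 differed by over 1.2-fold.

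**Figure D1:**
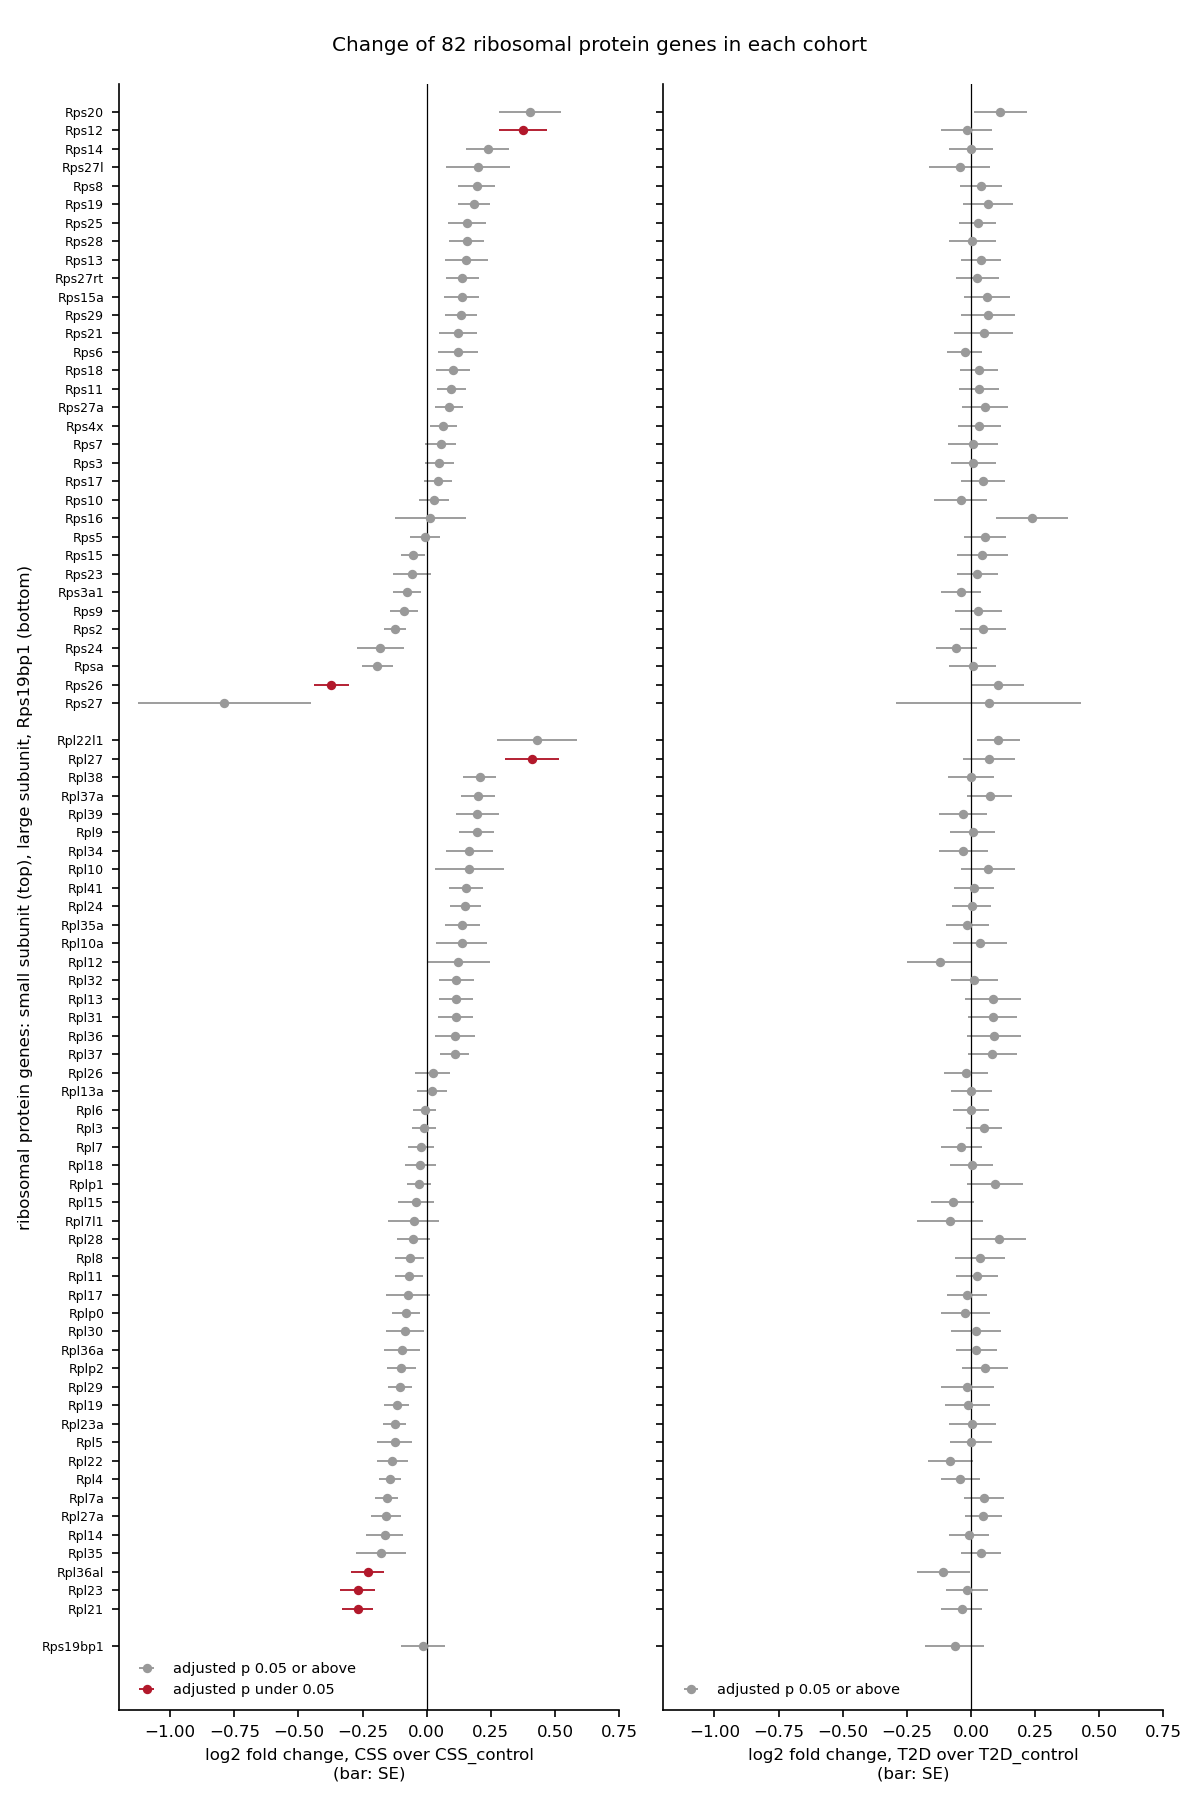
Log2 fold change with its standard error for 82 of the 83 genes (rows, by subunit and by size of the CSS change), CSS over CSS_control on the left and T2D over T2D_control on the right; dark red marks an adjusted p under 0.05. In the CSS panel 43 points lie above 0, and Rps26 lies at −0.37 and Rpl27 at 0.41 among those past the test; in the T2D panel 0 are past the test and the points run from −0.12 to 0.24.

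Rps26, a small-subunit protein at the channel where messenger RNA leaves the ribosome and a gene mutated in human Diamond-Blackfan anaemia, had the smallest p of the members. Its lowest, median and highest levels were 49.8, 54.0 and 58.0 CPM in CSS mice, against 59.1, 69.1 and 86.1 CPM in CSS_control mice. The highest CSS mouse lay below the lowest control, so the groups did not overlap. This held for 1 of the 83 members (1.2%) and for 0.609% of all genes. Rps26 averaged 53.8 ± 2.95 CPM in CSS mice and 69.6 ± 8.87 CPM in CSS_control mice (SD, n = 8 each), a log2 fold change of −0.37 ± 0.07 (SE, edgeR adjusted p = 0.0092).

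Rpl21, a large-subunit protein, ran from 203 through a median of 217 to 232 CPM in CSS mice, against 221, 269.6 and 309 CPM in CSS_control mice. The log2 fold change was −0.27 ± 0.06 (edgeR adjusted p = 0.0226), with all 8 CSS libraries under the control mean and some of them above the lowest controls.

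Rpl23 lies at the face of the large subunit that meets the small one, and its free protein can bind the p53 regulator Mdm2. It ran from 120.2 through 132.6 to 149.99 CPM in CSS mice, against 137, 164 and 185 CPM in CSS_control mice, with a log2 fold change of −0.27 ± 0.07 (edgeR adjusted p = 0.0331). Rpl36al is a relative of Rpl36a, and their proteins are nearly the same. It ran from 33.2 through 37.9 to 42.7 CPM in CSS mice, against 37.4, 45.6 and 49.2 CPM in CSS_control mice, with a log2 fold change of −0.23 ± 0.07 (edgeR adjusted p = 0.0481). All 8 CSS libraries lay below the control mean for both genes, and the groups overlapped. In Rpl36al 24.5% of the exon bases lie in an annotated gene on the same strand, Gm49383, and the sources used here do not say how reads they share were counted.

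Of the 2 members that rose, Rps12, a protein of the small subunit's beak that in Drosophila takes part in cell competition, had 115, 149.9 and 172 CPM as lowest, median and highest levels in CSS mice, against 86.6, 116 and 132.03 CPM in CSS_control mice. All 8 CSS libraries lay above the control mean, and 2 of them lay within the control range. The log2 fold change was 0.38 ± 0.09 (edgeR adjusted p = 0.0322). Rpl27, a large-subunit protein, had 21.2, 29.7 and 35.1 CPM in CSS mice, against 16.5, 21.7 and 25.6 CPM in CSS_control mice. Its log2 fold change was 0.41 ± 0.11 (edgeR adjusted p = 0.0365), with 7 of 8 CSS libraries above the control mean. Both genes have a copy of identical coding sequence, and neither passed the test when counts of gene and copy were added, as given further on. The log2 difference of the sum was 0.01 for Rps12 and 0.17 for Rpl27.

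**Figure D2:**
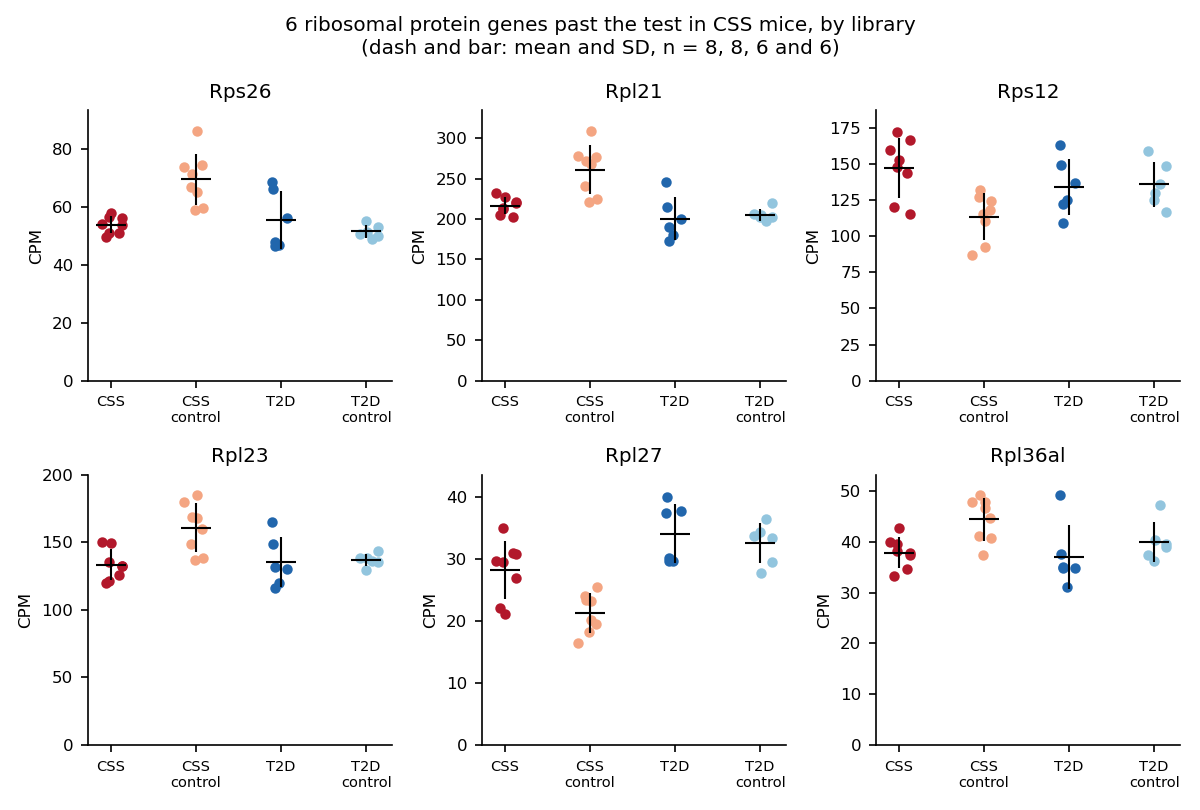
CPM of 6 genes past the test in CSS mice, in every library of the 4 groups (points), with mean and SD (n = 8 CSS, 8 CSS_control, 6 T2D and 6 T2D_control). Rps26 is at 49.8 to 58.0 CPM in CSS mice, below every CSS_control mouse; the tables of the cohorts were scaled separately, so levels compare only within a cohort.

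Rps26 passed the test in all 16 fits that each left out 1 library (highest adjusted p 0.0242). Rpl21 lost it without CSS 6 (adjusted p = 0.0503 in edgeR). Rpl23 lost it without CSS 5, 6 or 7 or CSS_control 1, 2, 4 or 5 (up to 0.0735), and Rps12 without CSS 3, 4, 6 or 8 or CSS_control 1, 2, 3 or 4 (up to 0.0722). Rpl27 lost it without CSS 3, 4, 6, 7 or 8 or CSS_control 1, 2, 3 or 8 (up to 0.0804), and Rpl36al in 12 of the 16 fits, those without any of CSS 2 to 8 or CSS_control 1 to 5 (up to 0.0980). The next members by p did not pass: Rpl7a at −0.16 (adjusted p = 0.0534 in edgeR), Rps20 at 0.40 (0.0628), Rpsa at −0.19 (0.0666), Rpl4 at −0.14 (0.0707) and Rpl38 at 0.21 (0.0742).

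The calls rested on which controls entered. Against CSS_control 1 to 4 alone 15 members rose and 10 fell in CSS mice, and against CSS_control 5 to 8 alone 0 did, with 1130 and 0 of all genes past edgeR's test. At an unadjusted p under 0.05 it was 10 members (12%) against controls 5 to 8, and 13.1% of all genes. Rps26 was at −0.48 against the first set (edgeR adjusted p = 0.00162) and −0.26 against the other (0.225). Rps12 was at 0.53 (0.0130) and 0.23 (0.337). Rpl21 was at −0.39 and −0.15, Rpl23 at −0.38 and −0.16, Rpl27 at 0.52 and 0.31 and Rpl36al at −0.30 and −0.16. Rps20, a small-subunit protein, did not pass with all controls but was at 0.73 against the first set (0.00106) and 0.13 against the other (0.571). Its level was 49.8 ± 3.93 CPM in CSS_control 1 to 4 and 74.9 ± 6.99 CPM in CSS_control 5 to 8, ranges that do not overlap, while CSS mice spanned 66.0 to 94.1 CPM. Rpl22l1 had a like division, at 21.7 ± 4.26 CPM in CSS_control 1 to 4 and 34.4 ± 3.27 CPM in CSS_control 5 to 8, against 27.7 to 47.4 CPM in CSS mice. With the title code as a term in the fit 0 members and 2 of all genes passed, and 7 members (8.43%) and 13.3% of all genes had an unadjusted p under 0.05. Among CSS mice, CSS 1 carries C1, CSS 2 carries C2, CSS 3 to 5 carry C3 and CSS 6 to 8 carry C4, which no control carries. Code and group are thus largely bound together, and few mice of like code can be compared. The low counts in this fit therefore cannot tell code from group. What the codes mark was not tested beyond these fits.

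Copies in the tables touch many of the members. In the GENCODE M21 annotation 78 of the 83 genes have a copy of at least 95% identity, with a median of 5 copies and up to 58. Of the members 23 had a listed retrocopy, a reverse-transcribed copy aligned over much of its own length, in each table, 26 copies in all. For 5 of these members copies held over 50% of the joint counts. The sequences below are the first 60 coding bases of 3 members and the same stretch of their copies, shown because a read that lies wholly within them matches both.
Rps12 (gene at chr10:23785183-23787275, minus strand): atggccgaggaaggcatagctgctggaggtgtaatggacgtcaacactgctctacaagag
Rps12-ps3 (gene at chr19:59322290-59322783, plus strand): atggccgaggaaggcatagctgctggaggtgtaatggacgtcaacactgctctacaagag
Rpl27 (gene at chr11:101442298-101445529, plus strand): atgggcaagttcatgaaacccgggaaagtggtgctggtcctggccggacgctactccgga
Gm11518 (gene at chr11:94037218-94037628, minus strand): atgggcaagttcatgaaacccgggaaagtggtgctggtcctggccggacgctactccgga
Rps27 (gene at chr3:90212522-90213651, minus strand): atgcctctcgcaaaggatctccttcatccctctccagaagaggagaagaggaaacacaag
Rps27rt (gene at chr9:114982366-114982739, minus strand): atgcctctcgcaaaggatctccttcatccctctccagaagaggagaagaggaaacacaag
The pairs had 0 mismatches over the whole coding sequence, 396 bases in Rps12, 408 in Rpl27 and 252 in Rps27. Rps20 and its copy Gm4332 differed at a single base of 346 aligned, G324A counted from 1 at the start of the Rps20 coding sequence, in capitals within bases 294 to 353.
Rps20 (gene at chr4:3831334-3835665, minus strand): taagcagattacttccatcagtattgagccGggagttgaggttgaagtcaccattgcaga
Gm4332 (gene at chr3:119709516-119709861, plus strand): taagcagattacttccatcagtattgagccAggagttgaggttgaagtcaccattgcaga
Within the 346 aligned bases, of 357 in the Rps20 coding sequence, reads from this pair differ only at that base.

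The copy of Rps12 fell as Rps12 rose. Rps12-ps3 had 7.92, 19.0 and 46.3 CPM as lowest, median and highest levels in CSS mice, against 19.1, 55.1 and 87.3 CPM in CSS_control mice, a log2 fold change of −1.32 ± 0.35 (edgeR adjusted p = 0.0476). Its share of the pair's counts was 12.5 ± 5.76% in CSS mice and 31.1 ± 12.5% in CSS_control mice. Added together, Rps12 and its copy had 168 ± 22.5 CPM in CSS mice and 167 ± 16.5 CPM in CSS_control mice, a log2 difference of 0.01 ± 0.08 (edgeR adjusted p = 0.953). The copy also divided the controls, at 71.9 ± 11.6 CPM in CSS_control 1 to 4 and 33.7 ± 13.1 CPM in CSS_control 5 to 8, without overlap.

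The copy of Rpl27, Gm11518, had 45.0 ± 5.002 CPM in CSS mice and 43.4 ± 2.33 CPM in CSS_control mice (log2 0.05, edgeR adjusted p = 0.698) and held more of the joint counts than Rpl27 itself, 61.4 ± 4.42% in CSS mice and 67.2 ± 3.15% in CSS_control mice. The sum of Rpl27 and copy was 73.2 ± 7.26 CPM in CSS mice and 64.9 ± 4.45 CPM in CSS_control mice, a log2 difference of 0.17 ± 0.06 that did not pass (edgeR adjusted p = 0.117). Rps20 with Gm4332 was at 0.36 (0.0710), near the value of Rps20 alone. With every listed retrocopy added to its parent, an alternative chosen after the data were seen, 0 members rose and 7 fell, with 672 of 15071 genes past the test. Among the 7 were Rps26, Rpl21, Rpl23 and Rpl36al again, with Rpl7a and Rpl27a, whose sum with its copy Gm7536 was at −0.22 ± 0.06 (edgeR adjusted p = 0.0400). The copies Gm7536 (−0.29, 0.0230) and Rpl31-ps8 (−0.40, 0.0350), a copy of Rpl31, passed on their own. Gm7536 was at −0.41 against CSS_control 1 to 4 alone (0.00176) and −0.16 against CSS_control 5 to 8 alone (0.340), and Rpl31-ps8 at −0.45 (0.0462) and −0.35 (0.311). The copies' share of the pair was lower in CSS than in CSS_control mice for 19 of the 23 members, with a median difference of −1.46 percentage points. In the diabetes cohort it was lower in T2D than in T2D_control mice for 15 of 23, with a median of −0.185 points. Rps26 has no retrocopy in the tables. A stretch of 345 bases with 97.4% identity to it lies within Med21, whose mean count in the social stress table was 272. Rpl21 has such a stretch of 480 bases with 98.5% identity in BC004004, with a mean count of 823. Small RNA genes cover 13.7% of the exon bases of Rps12 on the same strand, and 7.99% of those of Rpl22l1 lie opposite Gm33051.

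**Figure D3:**
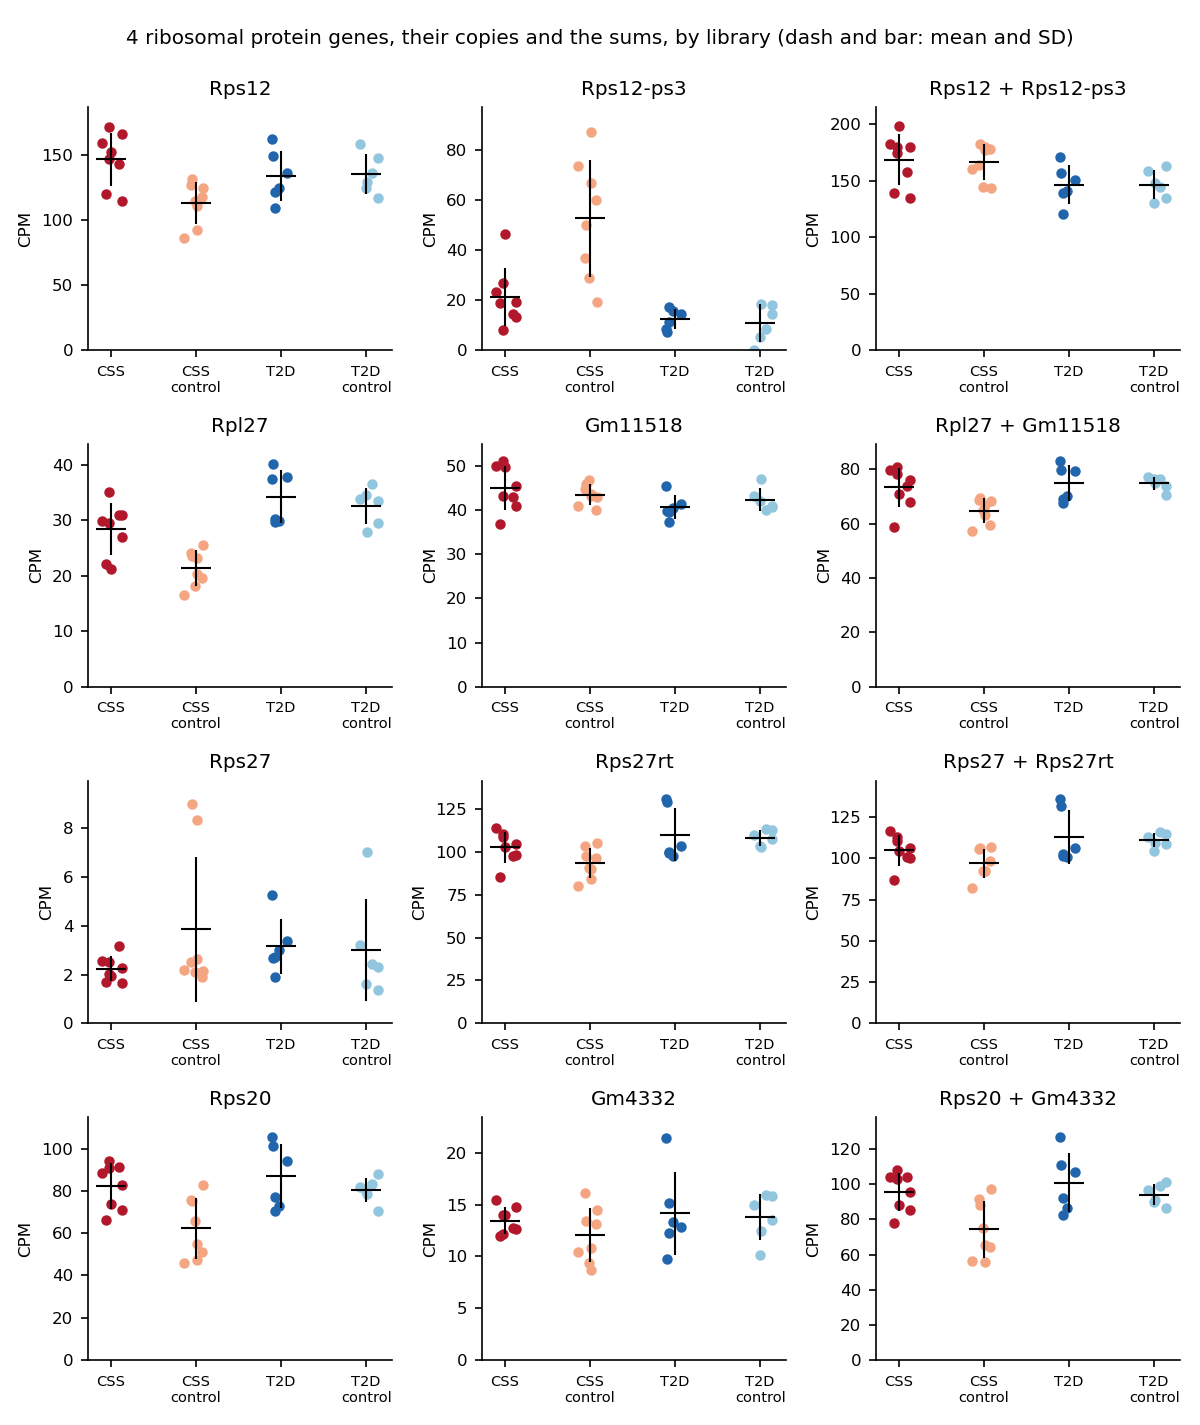
CPM of Rps12, Rpl27, Rps27 and Rps20 (left), of their copies (middle) and of both added (right) in every library, with mean and SD (n = 8, 8, 6 and 6). Rps12 is higher in CSS mice and Rps12-ps3 lower, at 21.2 ± 11.7 CPM against 52.8 ± 23.4 CPM in CSS_control mice, while their sums are 168 and 167 CPM.

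The genes with a close relative of their own family were compared with it. Rpl22l1, a relative of Rpl22 that can stand in for it, averaged 37.7 ± 6.94 CPM in CSS mice and 28.1 ± 7.63 CPM in CSS_control mice, a log2 difference of 0.43 ± 0.16 that did not pass (edgeR adjusted p = 0.116). Rpl22 was at −0.13 (0.217), with 63.6 ± 6.50 CPM in CSS mice and 69.7 ± 4.41 CPM in CSS_control mice. Rpl36al passed as given above, and Rpl36a was at −0.10 (0.451), with 47.3 ± 4.28 CPM in CSS mice and 50.6 ± 5.61 CPM in CSS_control mice. Rpl7l1, a nucleolar relative of Rpl7, was at −0.05 and Rpl7 at −0.02, neither past the test. Among the 6 relatives with counts, Rpl36al was the only gene that passed, and the difference between a relative and its parent was not tested.

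Rps27 showed the widest error of the members, and nearly all counts of the pair lay at Rps27rt, 97.9% of the pair in CSS mice and 96.1% in CSS_control mice. Rps27 had 1.65, 2.16 and 3.18 CPM as lowest, median and highest levels in CSS mice, against 1.89, 2.35 and 8.99 CPM in CSS_control mice. CSS_control 1 and 5 were at 8.35 and 8.99 CPM, and the other controls had at most 2.63 CPM. The log2 value of −0.79 ± 0.34 did not pass (edgeR adjusted p = 0.179). Rps27rt was at 0.14 (0.220), and Rps27l, a p53 target in human cells, at 0.20 (0.372), with 8.35 ± 1.44 CPM in CSS mice and 7.27 ± 1.29 CPM in CSS_control mice. Rps19bp1 was at −0.01 (0.941), with 7.75 ± 0.638 CPM in CSS mice and 7.83 ± 0.797 CPM in CSS_control mice.

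Of the 33 small-subunit genes 1 rose and 1 fell in CSS mice, counts near the shares over all genes (2.11% higher and 2.42% lower), and 23 had a positive log2 value, with a median of 0.09. Of the 49 large-subunit genes 1 rose and 4 fell, and 20 had a positive value, with a median of −0.03. Neither Rps12 nor Rpl27, the gene that rose in each subunit, passed the test when copies were added. The stalk genes Rplp0, Rplp1 and Rplp2, whose proteins recruit translation factors to the ribosome, were at −0.08, −0.03 and −0.10, and 0 of 3 passed. The members' share of all counts did not part the groups, at 1.05 ± 0.0831% in CSS mice and 1.05 ± 0.0628% in CSS_control mice.

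The sign of the change varied with transcript length. The 19 members under 500 bases had a median log2 change of 0.12 in CSS mice, with 14 positive, and the 46 from 500 to 1000 bases a median of 0.04, with 24 positive. The 18 members of 1000 bases or more had a median of −0.07, with 5 positive. Length here is that of a single annotated transcript per gene, a principal one where marked and then the shortest. Rps20, at 0.40 the highest of the longest class, is listed at 3706 bases with a coding sequence of 357. The classes therefore depend on the transcript chosen, and the lengths present in this tissue were not measured. Over the 83 members Spearman's rho between length and change was −0.37 and Pearson's r −0.16, a description over genes measured in the same libraries. Genes outside the family were split at other lengths, so the order was not compared at like lengths. Their medians were −0.04 under 1000 bases, −0.04 from 1000 to 2000 bases and 0.02 above 2000 bases. The libraries also differed in length over the other genes. The slope of log2 level on log2 transcript length lay between 2.99e-05 and 0.0803 in CSS libraries and between −0.0486 and −0.00152 in CSS_control libraries, so the groups did not overlap. With this slope as a covariate 0 members and 11 of all genes passed edgeR's test, the members' median was 0.15, and 48 members (57.8%) had an unadjusted p under 0.05, against 14.8% of all genes. In this fit Rps12 was at 0.57 (adjusted p = 0.0503), Rpl27 at 0.61 (0.0559) and Rps20 at 0.63 (0.0655), each above its value without the slope. Rps26 was at −0.31 (0.140), Rpl21 at −0.22 (0.216), Rpl23 at −0.19 (0.325) and Rpl36al at −0.13 (0.466), each nearer to 0. Because slope and group do not overlap, their parts in the change cannot be told apart.

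**Figure D4:**
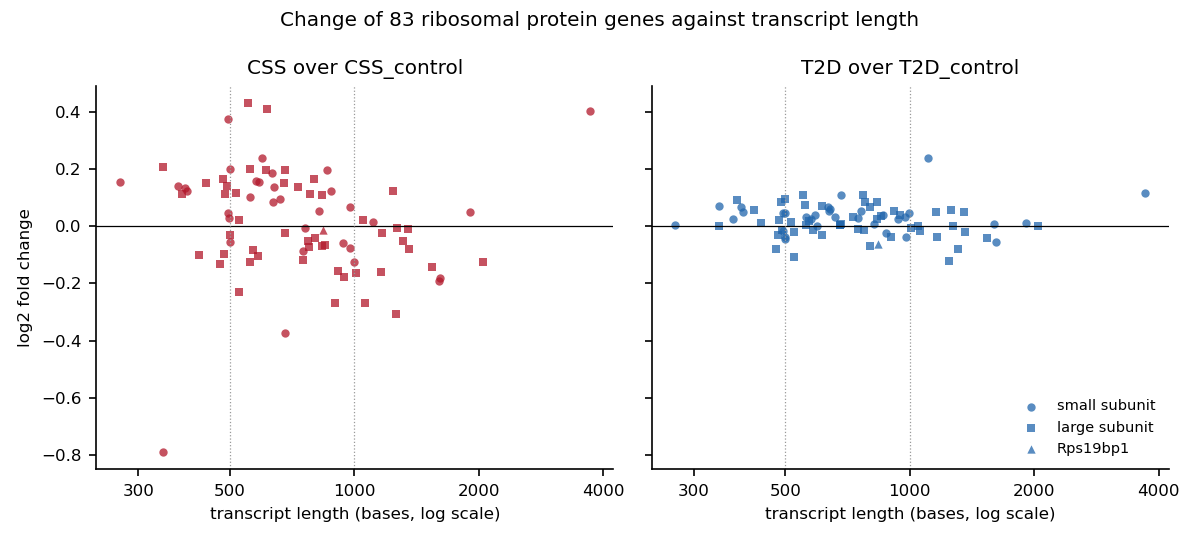
Log2 fold change of the 83 genes against the length of the annotated transcript (log axis, dotted lines at 500 and 1000 bases), CSS over CSS_control on the left and T2D over T2D_control on the right. In CSS mice 14 of 19 genes under 500 bases lie above 0 and 5 of 18 genes of 1000 bases or more; in T2D mice 13 of 19 and 10 of 18 do.

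In T2D mice 0 of the 83 members passed the test, where 0% of all genes did. At an unadjusted p under 0.05 it was also 0 members, against 5.84% of all genes (2.97% higher and 2.87% lower), and DESeq2 called 0 members and 4 of all genes. The log2 changes ran from −0.12 for Rpl12 to 0.24 for Rps16, 76 of 83 lay within 0.1 of no change, and 0 differed by over 1.2-fold. The median was 0.02, with 58 positive, against a median of 0.00209 over all genes. Rps16, whose tail reaches the transfer RNA in the small subunit, had the smallest p. It had 29.3, 43.6 and 48.0 CPM as lowest, median and highest levels in T2D mice, against 24.5, 38.3 and 41.8 CPM in T2D_control mice, with an edgeR adjusted p of 0.838. The groups overlapped over most of their range. The 4 members next by p were Rpl22l1 at 0.11, Rps20 at 0.11, Rps26 at 0.11 and Rpl36al at −0.11, with adjusted p from 0.856 to 0.884.

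The T2D mice differed among themselves more than their controls did. The coefficient of variation had a median over members of 13.7% in T2D mice and 5.45% in T2D_control mice, and was larger in T2D mice for 74 of the 83. In the social stress cohort it was 8.79% in CSS mice and 9.22% in CSS_control mice, larger in CSS mice for 40 of the 83. Rps29 shows the pattern, with 172 ± 35.1 CPM in T2D mice and 165 ± 3.63 CPM in T2D_control mice. The members moved together within a mouse: relative to the mean of the T2D_control mice 79 were higher in T2D 1 and 77 in T2D 3, while 3, 10 and 5 were higher in T2D 2, 4 and 6. The mean log2 difference over members was 0.28 in T2D 1 and 0.15 in T2D 3, and −0.13, −0.09 and −0.17 in T2D 2, 4 and 6. T2D 1 and 3 also had the most counts of their group, 22.7 and 21.8 M. They had its highest RNA integrity numbers, 9.2 and 9.4, and its lowest length slopes, −0.0339 and −0.000361. T2D 2, 4 and 6 had 14.3, 14.6 and 16.8 M, integrity numbers of 9.0 and slopes of 0.0285, 0.0266 and 0.00354. T2D 5, with a mean of 0.05, had 16.1 M, 8.7 and 0.00821. The part of these measures in the spread was not tested. The spread between groups was not tested. Tissue markers also varied in this cohort. The summed striatal markers ran from 108 to 849 CPM in T2D mice and from 130 to 761 CPM in T2D_control mice. Those of cortical excitatory neurons ran from 436 to 1106 CPM and from 706 to 1028 CPM. The part of tissue content in the members' spread was not tested. In the other cohort CSS 5 stood low, with 8 of 83 members above the control mean and a mean of −0.22, and CSS_control 5 high, with 81 and 0.17. CSS 5 also had the lowest RNA integrity number of its group, 9.0, and the highest length slope.

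**Figure D5:**
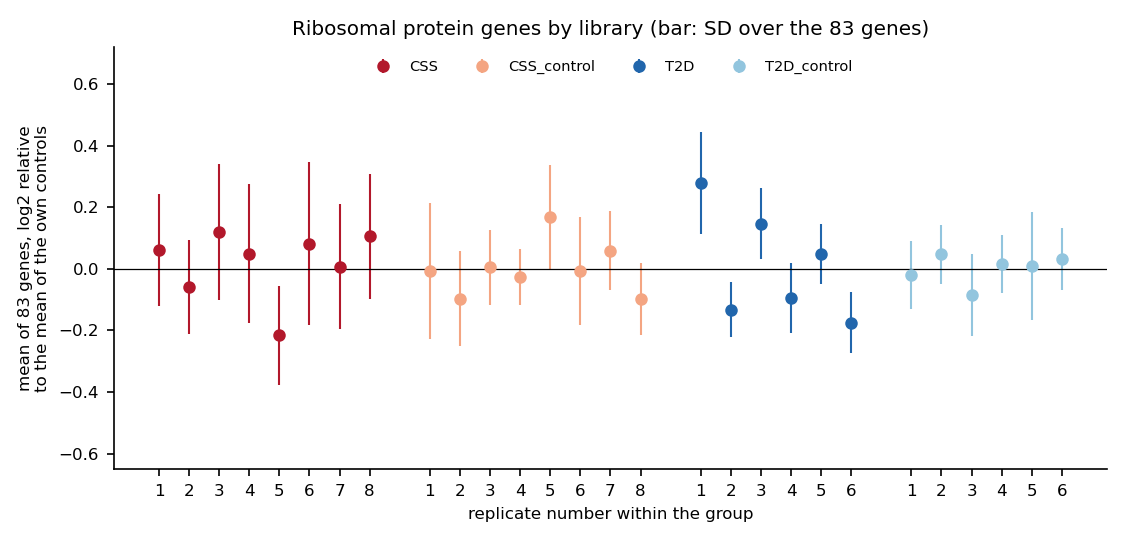
Mean over the 83 genes of the log2 level relative to the mean of the own controls, for each library (points, by replicate number within a group), with the SD over genes as bars. T2D 1 lies at 0.28 and T2D 6 at −0.17, while the T2D_control mice lie between −0.08 and 0.05; CSS 5 lies at −0.22.

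The difference between the cohorts' changes was tested in 14888 genes listed in both tables. It passed in 0 members, against 0.0806% of all genes (12 of 14888, 0.047% with a CSS change above the T2D change and 0.0336% below). At an unadjusted p under 0.05 it was 8 members (9.64%), 2 with a CSS change above the T2D change and 6 below, against 12.4% of all genes (6% above and 6.36% below). Rps26 had the smallest p. Its CSS change lay below its T2D change by 0.49 ± 0.12 on the log2 scale, with −0.37 in CSS mice and 0.11 in T2D mice, without passing edgeR's test (adjusted p = 0.123). DESeq2 called it (adjusted p = 0.0255) as the single member among 130 genes. A passing change in CSS and none in T2D does not show that the cohorts differ, and the T2D cohort holds 6 mice a group.

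Levels between genes are given as CPM per kb of annotated transcript, averaged over the 28 libraries. The highest were Rpl41 (515), which encodes the smallest ribosomal protein, the stalk gene Rplp1 (426), Rps29 (411), Rpl26 (383) and Rpl9 (359). The lowest were Rps19bp1 (9.76), Rps27 (8.87) and Rpl12 (8.34). For Rps27 and Rpl12 most counts of the family lay at a copy, 97.9% and 93.03% in CSS mice, and the level given covers only counts assigned to the gene itself. Rps27rt, with the same coding sequence as Rps27, stood at 277 CPM per kb. In the T2D_control mice the 5 highest genes differed little between animals, with Rpl41 at 223.5 ± 10.7 CPM and Rplp1 at 217 ± 12.6 CPM.

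Genes that work with the ribosomal proteins were taken from lists of the pathway. Over all genes 2.11% rose and 2.42% fell in CSS mice, and counts in lists this short are read against those shares. Of 15 further TOP translation genes 4 fell and 0 rose in CSS mice, with a median log2 change of −0.07 and 13 negative. Npm1, a nucleolar chaperone that carries ribosomal subunits, had 129 ± 9.19 CPM in CSS mice and 154 ± 16.7 CPM in CSS_control mice (−0.26, edgeR adjusted p = 0.0284). Nap1l1, a histone chaperone, was at −0.23 (0.0218). The initiation factor genes Eif3h and Eif4b were at −0.19 (0.0264) and −0.16 (0.0384). Of 12 genes that control ribosomal protein synthesis 2 rose and 0 fell. Eif4ebp2, the repressor of cap-dependent translation that prevails in brain, had 29.1 ± 6.50 CPM in CSS mice and 20.0 ± 2.72 CPM in CSS_control mice (0.55, 0.0181). Rptor, the subunit of mTOR complex that binds its substrates, had 85.0 ± 8.38 CPM in CSS mice and 74.0 ± 3.92 CPM in CSS_control mice (0.20, 0.0497). Against CSS_control 1 to 4 alone and CSS_control 5 to 8 alone Npm1 was at −0.36 (0.00613) and −0.15 (0.340), Nap1l1 at −0.29 (0.0122) and −0.17 (0.303), Eif3h at −0.19 (0.0327) and −0.18 (0.247) and Eif4b at −0.21 (0.0159) and −0.10 (0.385). Eif4ebp2 was at 0.64 (0.0229) and 0.46 (0.239) in these fits, and Rptor, which passed against neither set, at 0.20 (0.119) and 0.20 (0.303).

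Of 16 chaperones and late assembly factors 1 rose and 0 fell in CSS mice. It was Efl1, a GTPase that frees new large subunits of eIF6, at 0.24 (edgeR adjusted p = 0.0455), and it passed against neither set of controls, at 0.23 (0.125) and 0.25 (0.294). Of the 6 ribosome quality control genes with counts, 0 passed. Fau and Rack1, whose products include ribosomal proteins that the symbol rule misses, were at −0.14 and 0.05, and neither passed. Of the 52 genes of these lists 7 passed edgeR's test in CSS mice, a larger share than the 4.52% of all genes. An unadjusted p under 0.05 was found for 21 of the 52, also a larger share than the 21.5% of all genes. In T2D mice 0 of the 52 passed, and 1, the kinase gene Rps6kb2, had an unadjusted p under 0.05, where 5.84% of all genes did.

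Markers of other cells moved with social stress as well. Of 9 microglial markers 5 fell in CSS mice, where 2.42% of all genes fell. They were C1qa, C1qb, C1qc, Ctss and Csf1r, and their summed level was 186 to 363 CPM in CSS mice (median 317) and 351 to 403 CPM in CSS_control mice (median 379), with 0 libraries at 0 for a marker. Of 5 fibroblast markers 1 rose, Col1a1, with a summed level of 25.0 to 76.2 CPM in CSS mice and 20.6 to 47.6 CPM in CSS_control mice. All 5 red blood cell markers had positive log2 values and 0 passed, with a summed level of 133.2 to 575 CPM in CSS mice and 101.9 to 231 CPM in CSS_control mice. Astrocyte and endothelial markers each had 1 gene that rose, Slc1a2 and Slco1a4. Of these 8 marker genes Col1a1 (1.19, adjusted p = 0.0305 in edgeR) and Slco1a4 (0.29, 0.0337) passed against CSS_control 1 to 4 alone, and against CSS_control 5 to 8 alone they were at 1.09 (0.225) and 0.19 (0.311). C1qa was at −0.44 (0.0776) and −0.47 (0.239) against the sets. Of the 18 genes outside the family named here as past the test, the 3 copies included, 10 passed against CSS_control 1 to 4 and 0 against CSS_control 5 to 8. Against the latter 16 had an unadjusted p under 0.05, where 13.1% of all genes did. The 18 were picked as past the test with the same CSS mice and all controls, so this count is no separate support. The part of these cells in the ribosomal protein values was not tested.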

How the data were processed

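RNA of a dissected frontal cortex from each of 28 mice was depleted of ribosomal RNA and sequenced from stranded libraries, per the labels' protocols. The authors deposited estimated counts per gene in a table for each cohort, made with Salmon 1.1.0 on mm10 per the submitters' processing notes. The sources used here do not give how transcripts were summed to genes, any scaling for length, the strand setting or the filter on low genes. The tables share no scaling, so tests were run within a table, and the difference between cohorts in a joint fit over genes of both.

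Estimated counts were rounded to whole numbers and fitted with edgeR 4.0.16 (TMM scaling, robust quasi-likelihood test, R 4.3.3, limma 3.58.1) over all genes, with Benjamini-Hochberg adjustment and a threshold of 0.05. No gene was removed by the filter on low counts, so all 83 members were tested. A prior count of 2 was used for log2 CPM. DESeq2 1.42.0 and surrogate variables from sva 3.50.0 were alternatives, with other scalings, filters, covariates and each library left out. The edgeR steps were tested on simulated counts. Gene and transcript lengths and copies came from GENCODE M21 (GRCm38, the build of mm10), which held 99.8% of the genes of each table. Copies were sought with blastn at 95% identity or more over at least 100 bases and 50% of the member's coding sequence. A retrocopy also had at least 40% of its own transcript aligned. Starts came from RefSeq. Figures were drawn with matplotlib 3.10.9.

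The members and lists were chosen with earlier results of these data known. Genes named are the members past the test, the 5 of smallest p in each cohort, the 5 highest and 3 lowest per kb, the relatives with their parents, Rps19bp1, and members of the other lists past the test; values of some of these are not reported here. The genes just outside the threshold and those tied to a copy or a control set were added after their values were seen. Mice of the same replicate number were not treated as pairs in the main fits.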

Additional observations from a re-analysis of the deposited data

Results flagged for a closer look

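In groups of 6 or 8 libraries, 8 of 108 sets of values had a single library far from the others by Dixon's criterion, where chance flags about 1 in 20. Of the 108, those that stood out were the following. Rps19bp1 was 9.23 CPM in CSS 6, against a group median of 7.60 CPM. Rpl36al was 49.1 CPM in T2D 1 (median 34.9) and 47.3 CPM in T2D_control 4 (median 39.2). Rpl21 was 219.7 CPM in T2D_control 2 (median 204), and Rps27 was 7.03 CPM in T2D_control 5 (median 2.39). Retrocopies took 0.109% of all counts in T2D_control 2 (median 0.102%). The slope of level on transcript length was 0.0803 in CSS 5 (median 0.0106) and −0.0486 in CSS_control 5 (median −0.0171). The last pair of libraries were also those whose ribosomal protein genes stood lowest and highest in the social stress cohort.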

How the results depend on the processing

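The counts of members in CSS mice, 2 higher and 5 lower, were within 1.5 times under size factors of the RLE kind (2 and 6), scaling without the members (2 and 6), at least 10 counts in every library (2 and 6), no filter (2 and 5), a fit that is not robust (2 and 5) and 1 surrogate variable (2 and 4). Correlations between the deviations of same-numbered mice ran from −0.163 to 0.334 in the social stress cohort and from −0.0144 to 0.135 in the diabetes cohort. The main fits therefore did not treat them as pairs, though low correlations cannot exclude a pairing. With the replicate block 3 rose and 4 fell, Rps20 gaining the call (adjusted p = 0.0332 in edgeR) and Rpl36al losing it (0.0871), with 478 of all genes called. RNA integrity as a covariate left 1 higher and 4 lower. The length slope as a covariate left 0 and 0 with a median of 0.15, DESeq2 gave 4 and 10 (1313 of all genes), and retrocopies summed into their parents gave 0 and 7. CSS_control 1 to 4 alone gave 15 and 10, CSS_control 5 to 8 alone gave 0 and 0, and the title code as a block gave 0 and 0. Leaving out each library gave 0 to 3 higher and 2 to 7 lower, with 222 to 794 of all genes called. The difference between cohorts held 0 members except under DESeq2 (1, Rps26). The causes of these shifts were not tested. Both fits on a set of controls held 4 control libraries. T2D counts were 0 in all fits. The median over members ran from −0.01 to 0.05 in CSS under the other alternatives and from −0.04 to 0.06 in T2D, and no named gene reversed a called direction. Counting depth limits Rps27 most, at 1.65 to 3.18 CPM in CSS mice.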
